A study of Mus musculus with 2 samples.

Results

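ILC1-like cells of the mouse spleen were picked out of a sort for natural killer (NK) cells by the transcripts they carried. A barcode was taken as a member when it held at least 1 unique molecular identifier (UMI, 1 counted RNA molecule) over the NK receptor genes Ncr1, Klrb1c and Klrk1, at least 2 UMIs over Tmem176a and Tmem176b, and at least 1 over Cxcr6 and Il7r. It also had to hold no UMI of Cd3e, C1qa, C1qb, C1qc, H2-Aa or Cd79a, genes of T cells, macrophages, antigen-presenting cells and B cells. Barcodes were kept from 500 detected genes upwards and up to 10% mitochondrial UMIs. Of the 20951 kept, 73 met this rule (0.348%), 29 in the control library and 44 in the knockout library. The 7 genes that chose the members are given as a description, and levels of other genes are set beside those of NK cells of the same library.

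Type 1 innate lymphoid cells (ILC1) are tissue lymphocytes that share NKp46, NK1.1, the transcription factor T-bet and the cytokine interferon gamma with NK cells, but lack most of the NK cell's killing machinery. In mice they are usually told from NK cells by the interleukin 7 receptor, the chemokine receptor CXCR6, CD49a and TRAIL, and by the absence of Eomes and of most Ly49 receptors. They are abundant in the liver and rare in the spleen.

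The study set NK cells of the spleen of 2 kinds of C57BL/6 mice side by side, both with loxP sites around Ptger3, which encodes EP3, a receptor for prostaglandin E2. The control mice (EP3F/F) carried the floxed gene alone and the knockout mice (NKp46CreEP3F/F) also carried a Cre recombinase driven from the NKp46 gene, Ncr1. Such a Cre is active in NKp46-bearing cells, ILC1 among them, so these cells are themselves targets of the deletion. Cells positive for CD27 and CD11b were sorted from 2 mice per genotype, pooled, and made into 1 droplet library of 3' tags for each genotype. With 1 library per group no difference between genotypes has a replicate check, no p-value can be given, and every interval below covers counting error alone at 95%.

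The control library held 69853026 UMIs and the knockout library 42795121, a ratio of 1.63. Members held a median of 6442 UMIs in the control (range 1795 to 19993) and 4535 in the knockout (2149 to 10305), against 5821.5 in 10116 control NK cells and 3827.5 in 8790 knockout NK cells. In each library 3 members lay above the 95th percentile of NK cells. The libraries shared 33 barcode sequences, none of them a member's. Ptger3 itself was at 0 UMIs in all members, where a count of 0 allows up to 13.7 parts per 1000000 UMIs (CPM) for control and 14.5 for knockout members, and at 13 UMIs in control and 0 in knockout NK cells. Which stretch of the gene was removed is not given in the sources used here, so a 3' tag cannot check the deletion.

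Tmem176a and Tmem176b, which encode related membrane proteins known in mice from dendritic cells and type 3 innate lymphoid cells, lie head to head on chromosome 6. Their promoters are shown because the rule leans on both genes together. Windows run from 250 bases before to 50 bases after an annotated start in RefSeq on the GRCm38.p6 build, and the first one listed for each gene is shown. The windows shown share 155 bases, read from opposite strands and set in capitals below. The Tmem176a window is chr6:48841233-48841532 on the plus strand, the Tmem176b window is chr6:48841088-48841387 on the minus strand, and both are written 5′ to 3′.
Tmem176a: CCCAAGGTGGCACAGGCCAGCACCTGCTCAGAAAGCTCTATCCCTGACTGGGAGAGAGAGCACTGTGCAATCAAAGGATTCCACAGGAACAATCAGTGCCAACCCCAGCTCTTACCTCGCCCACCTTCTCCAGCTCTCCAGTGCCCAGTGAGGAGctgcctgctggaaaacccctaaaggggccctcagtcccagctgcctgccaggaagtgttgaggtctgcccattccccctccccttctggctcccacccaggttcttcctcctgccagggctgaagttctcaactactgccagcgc
Tmem176b: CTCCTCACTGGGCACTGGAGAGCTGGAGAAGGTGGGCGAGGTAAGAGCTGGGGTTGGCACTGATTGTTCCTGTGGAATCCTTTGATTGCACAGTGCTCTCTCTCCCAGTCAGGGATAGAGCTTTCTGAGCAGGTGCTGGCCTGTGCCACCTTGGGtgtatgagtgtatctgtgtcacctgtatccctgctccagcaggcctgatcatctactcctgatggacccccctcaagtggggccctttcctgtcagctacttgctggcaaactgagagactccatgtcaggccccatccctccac
The starts of the windows shown lie 346 bases apart. RefSeq lists 5 such windows, 2 for Tmem176a and 3 for Tmem176b. Another Tmem176b start, at 48841374, lies nearer to the Tmem176a start shown, at 48841483. In GENCODE the annotated genes overlap on opposite strands, and how strand was counted is not given in the sources used here, so reads of one cannot be told for certain from those of the other.

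The genes of the rule stood at low counts in single cells. Members held 2 to 6 Tmem176 UMIs in the control and 2 to 8 in the knockout, with a median of 3 in each. Both Tmem176 genes were seen in 21 of 29 control and 27 of 44 knockout members. Summed over members, Tmem176a had 183 CPM (control) and 289 CPM (knockout). Tmem176b had 256 and 434 CPM. These sums follow from the choice of members. Il7r, the receptor chain for interleukin 7, carried most of the remaining rule: it was alone in 20 control and 27 knockout members, together with Cxcr6 in 9 and 14, and absent from 3 knockout members that held Cxcr6. Il7r stood at 1002 CPM in control and 1036 in knockout members, against 24.6 and 55.5 in NK cells, which were not chosen on it. Cxcr6, a chemokine receptor of tissue-resident lymphocytes, stood at 59.5 and 125 CPM against 0.592 and 3.91 in NK cells. Ncr1, the NKp46 gene, stood at 874 and 1065 CPM in members and at 790 and 819 in NK cells, both classes being chosen on it. No member held fewer than 5 UMIs over the 3 NK receptor genes.

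The threshold on Tmem176 fell within a continuum. Exactly 2 Tmem176 UMIs were held by 12 control and 17 knockout members, while 29 control and 51 knockout cells met the rest of the rule with 1. Il7r stood at 1150 and 1174 CPM just inside the threshold and at 865 and 797 just outside. Ltb, the gene of lymphotoxin beta, stood at 575 and 874 CPM inside and 624 and 700 outside. Gzma, the gene of granzyme A, stood at 4409 and 1924 CPM inside and at 2961 and 3448 outside. Il7r, on which both groups were chosen, was higher inside in both libraries, and the order of Ltb and of Gzma differed between the libraries.

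Members made up 0.265% of kept control barcodes (exact binomial interval 0.178 to 0.381) and 0.439% of kept knockout barcodes (0.319 to 0.589). The ratio of the shares was 1.65 (1.01 to 2.74), and with 1 library of pooled mice per group it is not a test of genotype. T cells with NK receptor transcripts (30 control and 87 knockout barcodes), macrophages (136 and 306) and class II-high cells (137 and 162) were also more numerous in the knockout library, and their part in the share of members was not tested. With every cell thinned to 2000 UMIs before the rule, 4 control and 20 knockout members were left (0.0375% and 0.208%).

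Most nearest neighbours of members were NK cells, and members were among each other's neighbours more often than their share of the library. Among the 15 nearest neighbours of a member, in a space of 30 principal components built from 1500 variable genes without those of the rule, 6.44% of control and 12.6% of knockout neighbours were members, which made up 0.265% and 0.439% of the libraries. At least 1 member was among the neighbours of 12 of 29 control and 30 of 44 knockout members. NK cells made up 79.1% and 70.5% of the neighbours. T cells with NK receptor transcripts made up 0.460% and 0.152%, whereas they were 32.9% and 49.9% of each other's neighbours.

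The label was checked against lineage lists (the plot of marker lists by cell class). A gene was called measured where its mean level over members and NK cells of both libraries was at least 50 CPM, which about 11 UMIs in control and 10 in knockout members give, and at that level the counting interval of a log2 ratio between the libraries runs from -1.46 to 1.31. Of 30 ILC1 genes 15 were measured, and 6 were at least 2-fold higher in members than in NK cells in both libraries (Cd160, Cd226, Emb, Ikzf2, Ltb and Rora), with none lower. Of these Ikzf2, Rora and Cd226 were under 50 CPM in NK cells and counted as measured through their level in members, so the count is a description and no support for the name. Over all 2816 measured genes 22 were that much higher in both (0.781%) and 17 that much lower in both (0.604%). The 15 measured genes of the ILC1 list had a median log2 ratio of 1.16 in the control and 0.96 in the knockout, beside -0.01 and -0.02 over all measured genes. The filter on level favours a high median in the same way, so it too is a description. Summed over the whole list the log2 ratios were 0.74 (0.66 to 0.82) and 0.61 (0.53 to 0.69).

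Several defining ILC1 genes were close to the detection limit. Zfp683, the gene of the residency factor Hobit, was at 0 UMIs in control and 1 in knockout members. Itga1, the CD49a gene, had 6 and 11 UMIs, or 27.5 and 53.0 CPM against 4.63 and 5.94 in NK cells, and lay in 3 of 29 and 9 of 44 members. Tnfsf10, which encodes TRAIL, had 8 and 4 UMIs, and Cd200r1, an inhibitory receptor gene, 8 and 3. Tbx21, the T-bet gene, stood at 160 and 125 CPM in members and 133 and 101 in NK cells, log2 ratios of 0.27 (-0.25 to 0.75) and 0.32 (-0.30 to 0.87). The name ILC1-like thus rests on Il7r, Cxcr6 and Tmem176, which chose the cells, while Zfp683 rests on that 1 UMI. The ILC1 list was not specific to members: it summed to 4676 and 4545 CPM in T cells with NK receptor transcripts, between NK cells and members. In cells with 1 Tmem176 UMI that met the rest of the rule it summed to 6131 and 5336 CPM, above control members. The Ly49 list summed to 786 and 768 CPM in those cells.

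**Figure D1:**
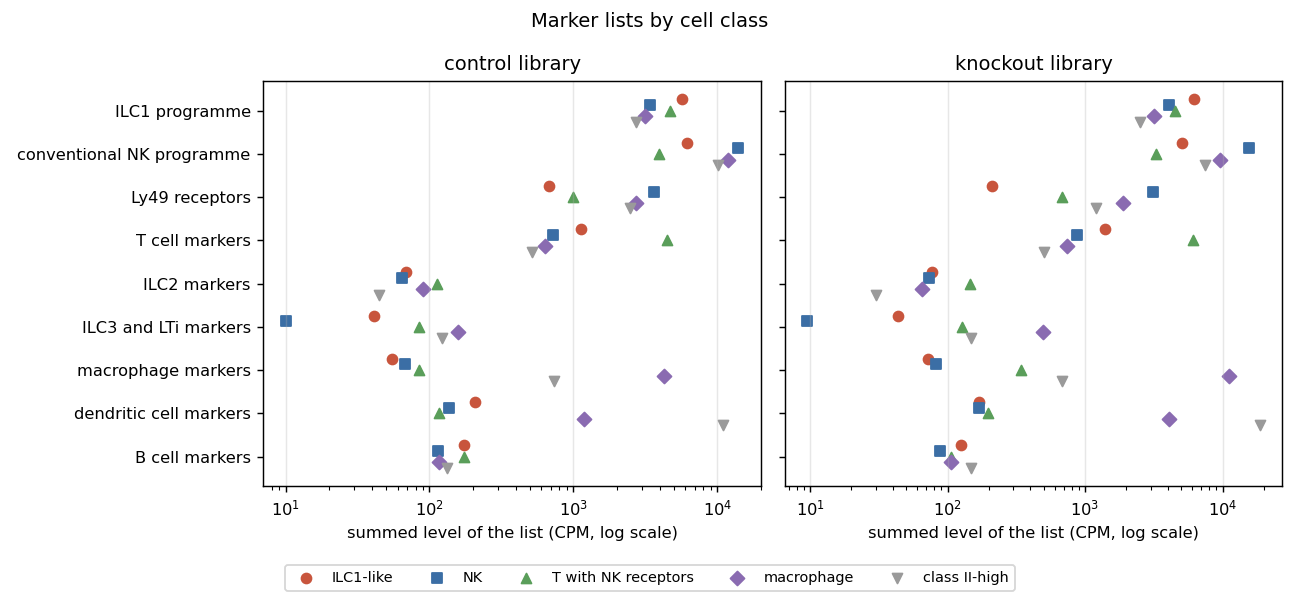
Summed level of each marker list in CPM (log axis) in 5 cell classes, control library on the left and knockout library on the right, 1 point per class and library without error bars. ILC1-like cells sit above NK cells for the ILC1 list (5703 against 3407 CPM in the control, 6183 against 4056 in the knockout) and lowest of the 5 classes for the Ly49 list (677 and 212 CPM).

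Markers of other innate and myeloid lineages were low, and some stood above NK cells. The 12 genes of type 3 innate lymphoid cells, none of them measured, summed to 41.2 CPM in control and 43.4 in knockout members from 9 UMIs each, against 10.1 and 9.58 in NK cells, log2 ratios of 2.03 (0.90 to 2.97) and 2.18 (1.04 to 3.12). Among them Ahr, a ligand-activated transcription factor gene, had 6 and 3 UMIs, while Il23r, Il22 and Il17a were at 0 in all members. The 12 type 2 genes summed to 68.7 and 77.1 CPM against 64.6 and 73.0, with Il1rl1, Il13 and Il5 at 0. The 12 macrophage genes summed to 54.9 CPM in control and 72.3 in knockout members, against 67.6 and 82.2 in NK cells, with Adgre1 and Csf1r at 0 in both libraries. The 12 dendritic cell genes summed to 206 and 169 CPM against 136 and 169. Among them Cd74, the class II invariant chain gene, had 9 and 7 UMIs in members, or 41.2 and 33.7 CPM against 3.93 and 8.47 in NK cells. These are log2 ratios of 3.39 (2.25 to 4.34) and 1.99 (0.67 to 3.05). The 9 control UMIs lay in 4 of 29 members, and 6 of the 7 knockout UMIs lay in 1 member. For each Tmem176 UMI there were 0.0938 and 0.0467 Cd74 UMIs in members and 18.8 and 21.0 in class II-high cells, an order that the choice of both classes fixed. The part of RNA from antigen-presenting cells in the Tmem176 counts was not tested.

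T cell transcripts were also above NK cells. The 15 T cell genes summed to 1121 CPM in control and 1402 in knockout members, against 725 and 879 in NK cells and 4508 and 6136 in T cells with NK receptor transcripts. Trbc2, a T cell receptor beta constant gene, was 2-fold higher or more in both libraries (417 against 172 CPM, 496 against 200). Cd4, Cd8a, Cd8b1, Cd5, Cd6 and Themis were at 0 UMIs in all members. Cd28, of the same list, had 30 UMIs in 13 of 29 control members and 29 UMIs in 21 of 44 knockout members. Cd3d had 7 UMIs in the control, all in 1 cell, and 1 in the knockout, and Trac 0 and 1. Cd3g had 5 UMIs in 4 of 29 control and 7 UMIs in 3 of 44 knockout members. At least 3 UMIs over Cd3d, Cd3g and Trac were held by 1 control and 2 knockout members. The T cell receptor gamma constant genes Tcrg-C1, Tcrg-C2 and Tcrg-C4 had 30 UMIs in 6 of 29 control members and 10 UMIs in 7 of 44 knockout members. They belong to a list of 9 gamma delta T and NKT genes, of which 1 was measured, with log2 ratios of -0.42 and -1.99 over NK cells. The whole list summed to 247 CPM against 137 in NK cells in the control, but to 106 against 187 in the knockout. A Tcrg-C4 UMI was found in 17.2% and 13.6% of members, 0.148% and 0.364% of NK cells, and 26.7% and 35.6% of T cells with NK receptor transcripts. After thinning these shares were 10.7% and 2.27%, 0.0600% and 0.151%, and 16.7% and 23.5%, beside 0.962% and 1.45% of macrophages. Whether some members were gamma delta T cells whose Cd3e was missed was not tested. Of the members with a gamma constant UMI, 2 in the control and 0 in the knockout also held a UMI of Cd3d, Cd3g or Trac. Leaving out members with a UMI of Cd3d, Cd3g, Trac, Cd5, Cd28 or Bcl11b left 12 and 19 cells. In these cells 34 of 2871 genes were higher and 46 lower than in NK cells in both libraries. Among them were 17 of the 22 and 15 of the 17 genes named for all members.

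Among genes outside the rule, S100a4 and AC163354.1 had the highest ratios (the plots of log2 ratios by library and by gene). S100a4, a calcium-binding protein gene of motile and memory lymphocytes, stood at 870 CPM in control and 598 in knockout members, against 68.1 and 39.4 in NK cells. These are log2 ratios of 3.67 (3.46 to 3.88) and 3.92 (3.65 to 4.19). It lay in 22 of 29 and 29 of 44 members, and stood at 219 and 207 CPM in T cells with NK receptor transcripts but at 628 and 1403 CPM in class II-high cells. AC163354.1, a long non-coding RNA gene on chromosome 12, followed with log2 ratios of 3.16 and 4.08 from 38 and 56 UMIs in 14 and 29 members.

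**Figure D2:**
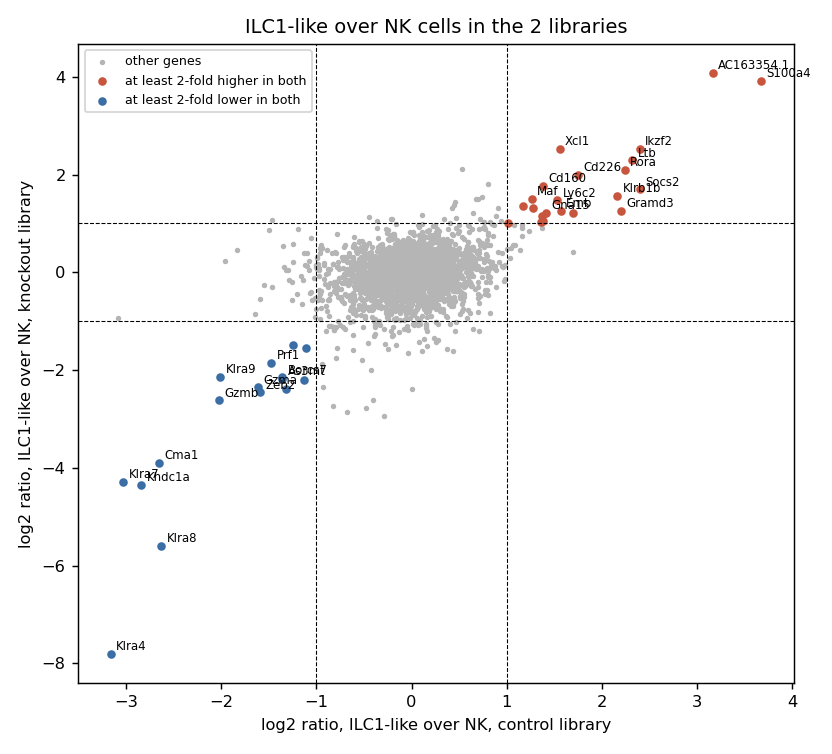
Log2 ratio of CPM, ILC1-like over NK cells, for 2815 measured genes, control library on the x axis and knockout library on the y axis, dashed lines at 2-fold, 1 library per axis. The 22 genes higher and 17 genes lower in both libraries lie in the upper right and lower left corners, with S100a4 and Klra4 at the ends, and most genes lie within 2-fold of equality.

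Transcription factor genes formed a small group. Of 32 listed 21 were measured, 3 were at least 2-fold higher in both libraries and 1 lower, with list medians of 0.02 and 0.18. Ikzf2, which encodes Helios, stood at 101 and 145 CPM against 19.1 and 25.1 in NK cells (2.40, 1.72 to 3.00; 2.52, 1.95 to 3.05). Rora, a nuclear receptor gene needed by several innate lymphoid lineages in mice, stood at 54.9 and 154 CPM against 11.6 and 36.0 (2.24, 1.28 to 3.05; 2.10, 1.54 to 2.60). Maf was higher by 1.26 and 1.503. Tcf7, the TCF-1 gene, was higher by 0.81 (0.35 to 1.23) and 0.80 (0.27 to 1.28), short of 2-fold. Id2, required for innate lymphoid development, differed by 0.31 and 0.46. Ikzf2 and Rora were not particular to members. In T cells with NK receptor transcripts an Ikzf2 UMI was found in 70% and 49.4%, beside 44.8% and 45.5% of members. A Rora UMI was found in 16.7% and 34.5% of those T cells, beside 27.6% and 38.6% of members.

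Of 18 cytokine and chemokine genes 8 were measured, and Ltb and Xcl1 were higher in both libraries (list medians -0.37 and -0.11). Ltb stood at 627 and 882 CPM in members and 126 and 180 in NK cells, ratios of 2.32 (2.06 to 2.56) and 2.29 (2.07 to 2.50). Xcl1, the chemokine gene that draws XCR1-bearing dendritic cells, stood at 860 and 858 CPM against 292 and 149, ratios of 1.56 (1.34 to 1.76) and 2.52 (2.30 to 2.74). The member level was alike in both libraries, and the NK level was lower in the knockout. Ccl5 and Ccl4, chemokine genes of NK cells, were not higher in members: Ccl5 differed by -0.35 and -0.07 and Ccl4 by -1.59 and -0.55. After thinning, an Ltb UMI was found in 64.3% and 75% of members (93.1% and 88.6% before thinning) and in 16.6% and 21.4% of NK cells (32.2% and 31.6% before). In macrophages, taken as cells that should lack it, the thinned shares were 15.4% and 26.6%, at median depths of 5536 and 3657 UMIs. Macrophages also held many NK transcripts, so these shares are not a clean background. T cells with NK receptor transcripts stood at 76.7% and 78.8%, above the members.

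Among receptor genes, Cd226 (the activating receptor DNAM-1) was higher by 1.75 (1.21 to 2.24) and 1.997 (1.500 to 2.45). Cd160 was higher by 1.38 and 1.78, and Klrb1b, an inhibitory NKR-P1 receptor gene, by 2.16 and 1.57. In T cells with NK receptor transcripts a Cd226 UMI was found in 60% and 58.6%, beside 65.5% and 61.4% of members. A Cd160 UMI was found in 70% and 51.7% of those T cells, beside 69.0% and 65.9% of members. Klrc1, the NKG2A gene, stood at 737 and 1296 CPM against 287 and 632, while its partner Klrd1 (CD94) differed by -0.21 and -0.25 and the activating Klrc2 by -0.61 and -1.60. Of 6 NKG2 and CD94 genes 4 were measured, 1 was at least 2-fold higher in both libraries and 0 lower. Emb, an adhesion glycoprotein gene, was higher by 1.57 and 1.26 and Cd7 by 1.16 and 0.96. Socs2, a brake on cytokine signalling, was higher by 2.40 and 1.70, Gramd3 by 2.21 and 1.26, and Gna15, a G protein subunit gene, by 1.41 and 1.21. Ly6c2, kept among the genes of conventional NK cells, went against that list with 1.53 and 1.47, from 91 UMIs in 13 control and 110 UMIs in 18 knockout members, and its control ratio was -0.43 in the 4 control members left after thinning. Further genes higher in both were Lgals3, Sidt1, Lyst, Ppp1r15a and Cited4.

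**Figure D3:**
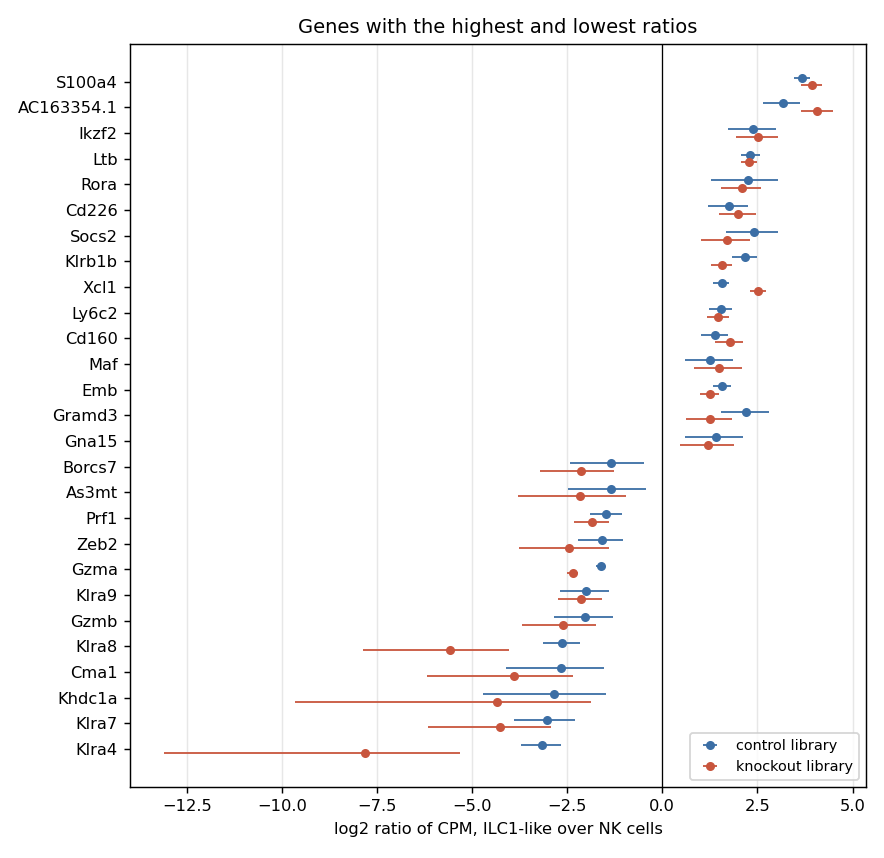
Log2 ratio of CPM, ILC1-like over NK cells, for the 15 highest and 12 lowest genes, points for each library and bars for the exact 95% counting interval. Every bar shown lies on 1 side of 0, and the widest, for Klra4 in the knockout library, runs from -13.11 to -5.32 because it rests on 1 UMI.

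The genes furthest below NK cells were the Ly49 receptors, a family of receptors for class I molecules encoded together on chromosome 6. Of 11 Ly49 genes considered 6 were measured and 5 were at least 2-fold lower in both libraries (list medians -2.32 and -4.93). Summed over the family, control members held 677 and knockout members 212 CPM, against 3661 and 3128 in NK cells. Klra4 stood at 142 and 4.82 CPM against 1266 and 1075, log2 ratios of -3.16 (-3.72 to -2.65) and -7.80 (-13.11 to -5.32). Of its 31 UMIs in control members 18 lay in 1 cell, and the knockout members held 1 in all. Klra8 stood at 169 and 14.5 CPM against 1047 and 696, Klra7 at 64.1 and 19.3 against 523 and 374, and Klra9 at 101 and 125 against 405 and 552. Klra1 was at 0 UMIs in knockout members, at least 6.65-fold lower than in NK cells by a floor of 3 counts over the members. The Klra genes resemble each other closely, so reads may have been assigned among them in part.

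Killing genes were lower as well. Of 18 cytotoxic genes 12 were measured, and Gzma, Gzmb, Prf1 and Cst7 were at least 2-fold lower in both libraries, with none higher (list medians -0.36 and -0.61). Gzma stood at 2604 CPM in control and 1923 in knockout members against 7977 and 9796 in NK cells, ratios of -1.61 (-1.74 to -1.496) and -2.35 (-2.49 to -2.21). Prf1, the perforin gene, stood at 220 and 193 CPM against 610 and 694. Gzmb stood at 68.7 and 48.2 against 278 and 296, and 9 of its 10 UMIs in the knockout were in 1 member. Other granule genes differed less: Nkg7 by -0.39 and -0.48, and Srgn, the gene of the granule proteoglycan serglycin, was higher by 0.64 and 0.89.

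Of 18 conventional NK genes 16 were measured, 8 were at least 2-fold lower in both libraries and 1, Ly6c2, higher (list medians -1.03 and -1.70). Beside Gzma, Gzmb and Prf1 these were Cma1, Khdc1a, Klre1, S1pr5 and Zeb2. Zeb2, a factor of terminal NK maturation in mice, stood at 114 and 33.7 CPM against 345 and 185. S1pr5, a receptor for egress from tissue, stood at 59.5 and 24.1 against 149 and 125. The UMIs of Cma1, a chymase gene, lay in 1 member per library, at 27.5 and 14.5 CPM against 172 and 215. As3mt and Borcs7, neighbours on chromosome 19 and no members of a list, were lower by -1.36 and -2.17 and by -1.36 and -2.15. N4bp1 was also lower in both.

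Eomes, the factor that marks the NK lineage, was lower in members. It stood at 183 CPM in control and 81.9 in knockout members against 352 and 299 in NK cells, ratios of -0.94 (-1.43 to -0.50) and -1.87 (-2.65 to -1.19). An Eomes UMI was found in 11 of 29 (37.9%) and 12 of 44 members (27.3%), and in 81.6% and 63.8% of NK cells. After thinning, the shares were 21.4% and 9.09% in members, 48.4% and 42.1% in NK cells, and 30.7% and 22.7% in class II-high cells, taken as cells that should lack it (median depths 3845 and 3002 UMIs). The share in members was below that of class II-high cells and is not read as expression. The same held for Gzma, found after thinning in 57.1% and 52.3% of members, 80.7% and 59.1% of class II-high cells and 98.1% and 83.6% of macrophages. Summed over the conventional NK list, members stood at 6202 and 5094 CPM, below macrophages at 11894 and 9529. Class II-high cells stood at 10141 and 7481 CPM and NK cells at 14021 and 15660. Macrophages and class II-high cells thus held many NK transcripts themselves and do not show what cells without these genes would give. Where the Eomes and Gzma UMIs of members came from was not tested.

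Single members differed widely (the plot of UMIs per cell). Gzma had a median of 9.40 UMIs per 10000 in control members (0 to 113) and 3.55 in knockout members (0 to 153), against 76.5 and 96.0 in NK cells, and was at 0 in 3 of 29 and 15 of 44 members. The Ly49 family had medians of 1.18 and 0 against 35.8 and 28.7, and was at 0 in 14 and 26 members. Ltb went the other way, with medians of 4.57 and 7.29 against 0 in NK cells of each library. The classes overlapped for all 3 readouts.

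**Figure D4:**
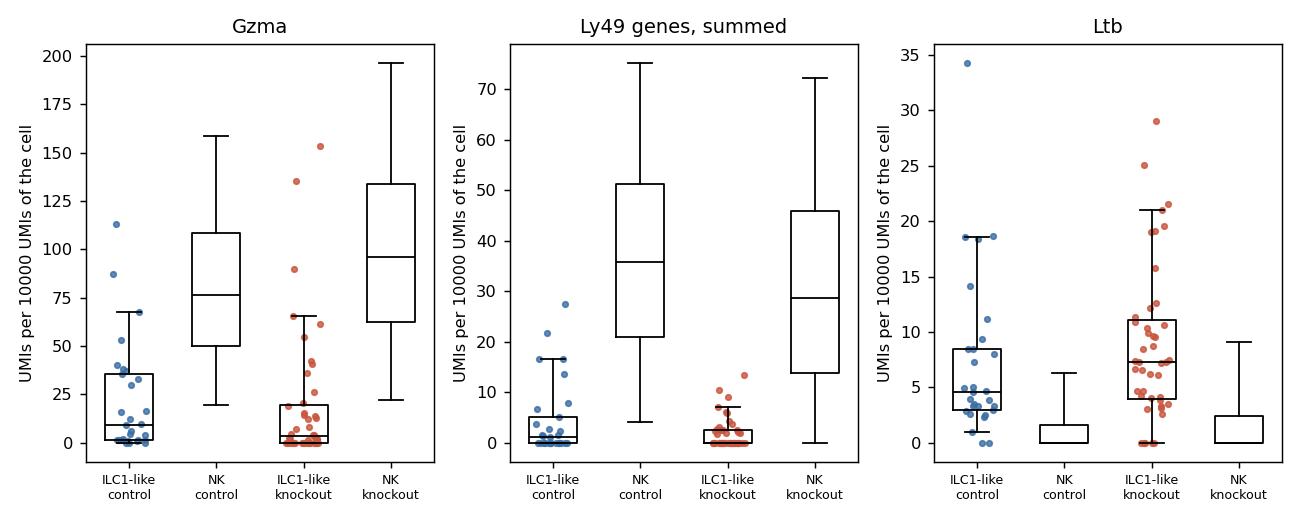
UMIs per 10000 UMIs of the cell for Gzma, the summed Ly49 genes and Ltb, boxes at the quartiles and median, whiskers at the 5th and 95th percentiles, dots for each of the 29 control and 44 knockout members. Most members sit below the NK median for Gzma (76.5 and 96.0) and for the Ly49 genes, and above it for Ltb.

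Members with and without an Eomes UMI are set side by side as a description, since that UMI, like those of Gzma, is not read as expression. The 11 control members with an Eomes UMI held 3651 CPM of Gzma and the 18 without held 1557, and in the knockout 12 held 2659 and 32 held 1566. Ly49 genes stood at 1144 against 211 CPM in the control and 384 against 129 in the knockout. Xcl1 went the other way, at 448 against 1273 CPM and 502 against 1030, and so did Ltb, at 366 against 888 and 680 against 980. Members with an Eomes UMI were deeper (medians of 8958 against 5904 UMIs and 5024.5 against 4242.5), and the part of depth and of RNA from NK cells was not tested. Zeb2 stood at 174 against 54.9 CPM in the control, where 10 of its 25 UMIs lay in 1 member. In the knockout Zeb2 stood at 44.3 against 28.6 CPM, from 3 against 4 UMIs. Prf1 did not keep its order, at 302 against 137 CPM in the control and 118 against 229 in the knockout. The knockout values of Prf1 rest on 8 and 32 UMIs and their counting intervals overlapped.

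Split by Cxcr6, the 9 control and 17 knockout members with a Cxcr6 UMI held 1237 and 998 CPM of S100a4, against 701 and 375 in those without. Rora stood at 116 and 310 CPM against 26.7 and 67.5, and Xcl1 at 1062 and 1120 against 768 and 712. Gzma did not keep its order: 1746 against 2998 CPM in the control and 2739 against 1469 in the knockout. The gamma constant genes stood at 277 CPM (166 to 432) against 73.4 (36.7 to 131) in the control, and in the knockout had 6 against 4 UMIs. For Xcl1 in the control the counting intervals overlapped (833 to 1336 against 634 to 922). Those of Rora in the control overlapped too (50.3 to 229 against 7.28 to 68.4), from 8 against 4 UMIs. Cxcr6 is a gene of the rule, so the split is a description.

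NK cells that held an Il7r UMI but no Tmem176 UMI (522 control and 757 knockout cells) lay between members and other NK cells on most readouts. They held 371 and 458 CPM of Ltb, 511 and 544 of Emb, and 555 and 870 of Klrc1. Gzma stood at 4834 and 5564 CPM and the Ly49 genes at 2208 and 1954. Members were below them for Gzma and Ly49 and above them for Ltb, Emb, Klrc1 and S100a4, which stood at 109 and 80.9 CPM in these NK cells.

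Genotypes could be set side by side only as 1 library each. In members, 89 of 2795 genes with a mean of at least 50 CPM were at least 2-fold higher in the knockout (3.18%) and 255 at least 2-fold lower (9.12%), while in NK cells of the same libraries 15 (0.537%) and 59 (2.11%) were. The median log2 ratio over all these genes was -0.07 in members and -0.04 in NK cells. The members' larger counts rest on 218481 control and 207516 knockout UMIs, against 64179228 and 37050462 in NK cells. Within a library, ratios of members to NK cells of at least 2-fold were 34 higher (1.21%) and 56 lower (1.99%) in the control, and 46 higher (1.63%) and 89 lower (3.16%) in the knockout.

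Several of the largest differences between the libraries had a similar size in NK cells (the plot of knockout over control). Cirbp, a cold-inducible RNA-binding protein gene, had 8 control and 62 knockout UMIs in members, a log2 ratio of 3.03 (1.96 to 4.30) beside 2.35 in NK cells. Wls, which encodes the carrier of secreted Wnt proteins, had 15 and 97 UMIs, a ratio of 2.77 beside 3.50. Lgals3, the galectin 3 gene, had 1.95 beside 1.77, and Higd1a, a mitochondrial gene, 1.87 beside 1.41. On the lower side Apobec3 (-1.81 beside -1.84), Fosb (-1.81 and -1.38), Sfpq (-1.79 and -1.51) and Dnaja1 (-1.74 and -1.59) were lower in both classes. Of 10 heat shock genes 7 were at least 2-fold lower, with medians of -1.13 in members and -1.31 in NK cells, and Hsph1 at -3.73 (28 and 2 UMIs) and -3.70. Genotype, the animals pooled and the handling of each library cannot be told apart.

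**Figure D5:**
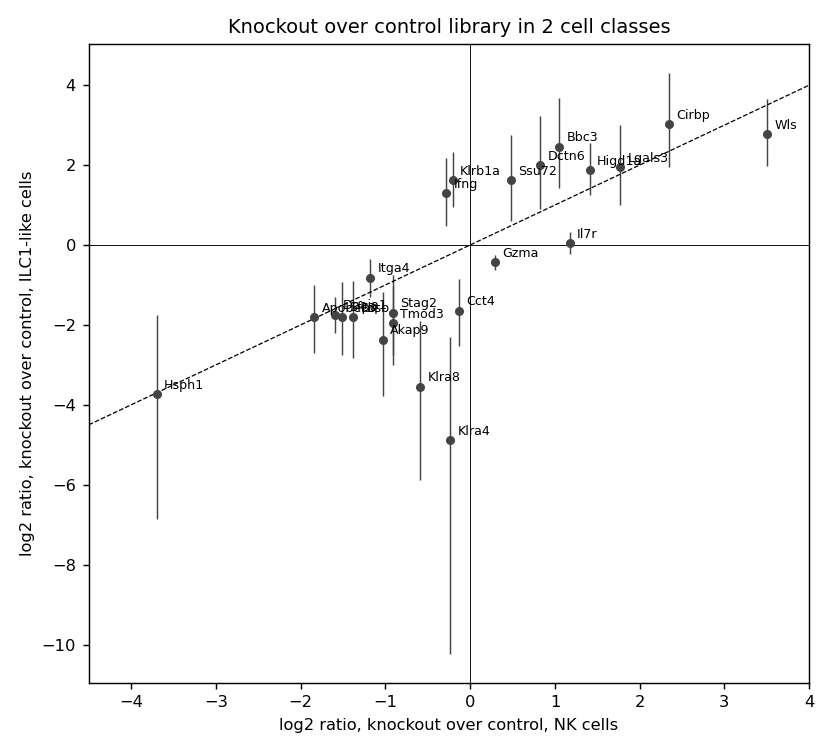
Log2 ratio of CPM, knockout over control library, in NK cells (x axis) and in ILC1-like cells (y axis, with the exact 95% counting interval), 1 library per genotype, dashed line at equality. Cirbp, Wls, Lgals3, Apobec3 and Hsph1 lie near the line, Klrb1a (1.62 against -0.20) and Ifng (1.30 against -0.28) above it, and Cct4, Klra8 and Klra4 below it.

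For other genes the ratio was larger in ILC1-like than in NK cells, which choosing the 8 highest and 8 lowest ratios in members, from few UMIs, favours by itself. Bbc3, the gene of the pro-apoptotic PUMA, stood at 41.2 CPM in control and 226 in knockout members, a ratio of 2.46 (1.41 to 3.67) beside 1.05, a difference of 1.41 (0.38 to 2.44). Dctn6, a dynactin subunit gene, had 1.99 beside 0.83 and Ssu72, a phosphatase gene of transcription, 1.61 beside 0.48. Akap9, a scaffold gene, had -2.37 beside -1.03, Tmod3, an actin-capping gene, -1.96 beside -0.91, and Stag2, a cohesin subunit gene, -1.70 beside -0.91. Cct4, a chaperonin subunit gene, had 56 and 17 UMIs, a ratio of -1.65 (-2.52 to -0.84) beside -0.13, a difference of -1.51 (-2.30 to -0.73).

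Effector and receptor genes are given with their ratio in NK cells beside them. Ifng, the interferon gamma gene, had 18 UMIs in 10 of 29 control and 42 in 20 of 44 knockout members, or 82.4 and 202 CPM, a ratio of 1.30 (0.47 to 2.18) beside -0.28. After thinning, an Ifng UMI was found in 7.14% and 25% of members. In macrophages the shares were 15.4% and 11.1%, and in class II-high cells 15.9% and 8.18%. The control share of members was below both and is not read as expression. Both of these classes held many NK transcripts, so they do not show what cells without Ifng would give. Klrb1a, an activating NKR-P1 receptor gene, had 26 UMIs in 13 members and 76 in 32, a ratio of 1.62 (0.96 to 2.32) beside -0.20, while Klrb1b beside it had 0.56 and 1.15. Gzma had -0.44 (-0.63 to -0.25) beside 0.30, and 174 of its 569 control UMIs lay in 1 member. Klra8 (-3.55 beside -0.59) and Klra4 (-4.88 beside -0.24) were also lower in knockout members, from 3 and 1 UMIs. Il7r, a gene of the rule whose level in members the choice sets, had 0.05 beside 1.17. Itga4, an integrin gene of lymphocyte homing, had -0.82 beside -1.18, lower in both classes.

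Prostanoid genes gave little. Of 15 listed 1 was measured, 8 were at 0 UMIs in members of both libraries, and Ptger4, the gene of the other main prostaglandin E2 receptor of lymphocytes, had 5 and 9 UMIs. At this depth no difference in them was detectable. Interferon response genes (5 of 19 measured) had medians of 0.65 and 0.76 over NK cells, all 5 higher in both libraries and none of them 2-fold in both, with Bst2 at 1.07 and 0.97 and Ifi203 at 0.22 and 0.76.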

How the data were processed

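Spleen cells sorted as NK cells were measured in 2 droplet libraries, 1 control and 1 knockout. The deposited matrices hold raw UMI counts per gene and barcode, made by the authors with STAR and Cell Ranger 3.0.0, per the submitters' processing notes, which name the GRCm39 build. Depths stand in the report. Of 31053 gene IDs 30934 matched GENCODE on GRCm38, used for overlaps and promoters only.

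Members and gene lists were chosen with earlier results of these data known. UMIs were summed per class and library and given per 1000000 (CPM), with exact Poisson, binomial and conditional binomial intervals (scipy 1.17.1, pandas 2.3.3, numpy 2.4.6, Python 3.11.15; scikit-learn 1.9.0 for neighbours). With 1 library per group nothing was tested, and at least 2-fold marks size alone. Named genes were the 15 highest and 12 lowest ratios by the library nearer 0, the 8 highest and 8 lowest genotype ratios at 100 CPM or more, up to 4 per list, and a fixed set. Other genes named, such as the rest of the 22 and 17, Ccl5, Klrd1 and some of those in the subsets, were named after their values were seen. Mitochondrial, ribosomal, predicted, antigen receptor and sex-specific genes were not ranked. Barcodes under 500 genes or over 10% mitochondrial UMIs were left out (857 control, 592 knockout). No doublet was removed. Thinning to 2000 UMIs left out 1 control member, 118 control and 160 knockout NK cells. NK cells held at least 3 NK receptor UMIs and none of Tmem176a, Tmem176b, Cd3e, C1qa and H2-Aa. T cells with NK receptor transcripts held at least 1 NK receptor and 2 Cd3e UMIs and none of Tmem176, C1q, H2-Aa or Cd79a, macrophages at least 3 C1q UMIs, and class II-high cells at least 3 H2-Aa UMIs and none of C1q, Cd79a or Cd3e. The summing and ratios were tested on simulated data.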

Additional observations from a re-analysis of the deposited data

Results flagged for a closer look

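Among 165 genes compared, 10 ratios of 7 genes had counting intervals on opposite sides of 0 in the 2 cell classes or the 2 libraries. With 1 library per group none of these differences was tested between animals, and some are given with their levels in the report.

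Within ILC1-like cells, the log2 ratio of knockout over control was 1.30 for Ifng (NK cells -0.28), 1.62 for Klrb1a (NK cells -0.20) and 0.63 for AC163354.1 (NK cells -0.28). It was -0.44 for Gzma (NK cells 0.30), -1.56 for Klra3, a Ly49 receptor gene (NK cells 0.35), -1.19 for Stmn1, a microtubule regulator of dividing cells (NK cells 0.48), and -0.35 for Jund, an AP-1 subunit gene (NK cells 0.08). Of the control members' UMIs, 18 of 36 for Stmn1 and 13 of 31 for Klra3 lay in 1 cell.

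The ratio of ILC1-like over NK cells was -1.24 for Klrb1a in the control and 0.58 in the knockout. For Stmn1 it was 0.83 and -0.84, and for Cct4 it was 0.59 and -0.93. The UMIs of Cct4 and Klrb1a were spread over many members, with at most 6 of 56 and 4 of 26 control UMIs in 1 cell.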

How the results depend on the processing

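No paired analysis was possible because each group is 1 library. Shares of members and counts of genes at least 2-fold apart followed the settings. Thinning before the rule gave shares of 0.0375% and 0.208%, with 164 genes higher and 107 lower than in NK cells and 647 higher and 1542 lower in the knockout. At least 4 Tmem176 UMIs (10 and 16 members) gave 0.0915% and 0.160%, 39 and 45, and 232 and 487. No further T cell UMIs gave 0.110% and 0.190%, 34 and 46, and 325 and 454. No further myeloid UMIs (10 and 22 members) gave 0.0915% and 0.220%, 36 lower, and 262 and 480. The genes of that setting were H2-Ab1, H2-Eb1, Lyz2, Adgre1, Csf1r and Cst3. In control members all of these but Cst3 were at 0 UMIs, so Cst3 alone removed control members. Leaving out members over the 95th percentile gave 27 lower and 141 higher in the knockout, and 5% mitochondrial UMIs gave 167 higher. Means of per-cell CPM gave 26 lower. A minimum of 20 CPM gave 57 and 54 of 5483 genes, and 444 and 740 of 5443. A minimum of 100 CPM gave 12 and 11 of 1405, and 20 and 76 of 1376. No minimum gave 297 and 136 of 8211, and 1091 and 1201 of 8212. The other settings counted 2813 to 2952 genes over NK cells and 2795 to 3237 between libraries, beside 2816 and 2795 in the main one. Fewer members or lower levels leave fewer UMIs per gene, the number of genes counted follows the minimum, and beyond that the cause was not tested. Of 994 values of named ratios under 13 alternatives, 991 kept their direction, and 137 of these lay outside the counting interval of the main value. The 3 others were Ly6c2 over NK in the control (-0.43, thinned), and Zeb2 in the knockout (0.85) and Lgals3 over NK in the control (-0.62) without myeloid UMIs. Median-of-ratios scaling moved ratios by at most 0.083.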
